A study of Larimichthys crocea with 2 samples.

Results

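The regions described here are stretches of muscle RNA that lay outside the annotated genes of the large yellow croaker and were assembled in both libraries of the study. A region of the control list was a member when it overlapped a region of the fasted list on the same scaffold by at least 50% of each, and on the same strand where both lists gave one. By this rule 2199 of the 3792 distinct control regions were members (58.0%), and they held 60.5% of the listed control bases on 875 scaffolds. Their partners were 2185 of the 4202 distinct fasted regions. The other 1593 control and 2017 fasted regions were in 1 list only. Members were thus chosen by the positions assembled in each library, so their overlap is a description and has no test. Just inside the limit lay pairs that overlapped by exactly 50%, 50.07% and 50.1% of the longer region, and 49.9% just outside.

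The study sequenced muscle RNA of Larimichthys crocea, a sea fish farmed for food, in 1 control library (M7C, no treatment) and 1 library from fish fasted for 21 days (M7E). The labels name neither the muscle, nor the number of fish pooled, nor their age, sex or strain. Annotated genes took 27519918 control and 26593839 fasted reads. Skeletal muscle markers were abundant in both libraries but not level. In sum over the genes of a name, control and fasted, creatine kinase M stood at 58949 and 59656 RPKM, fast myosin heavy chain at 30169 and 66249, skeletal alpha-actin at 115772 and 55236, fast troponin T at 19700 and 11164 and parvalbumin beta at 211530 and 45058. Slow troponin I, which marks slow fibres, stood at 515 and 105 RPKM and perilipin, which marks fat, at 109 and 14.3 (2 of 4 genes at 0). Of the liver markers, apolipoprotein A-I was near or at 0, and fibrinogen genes summed to 4.62 and 2.20 RPKM (4 of 11 at 0). Hemoglobin genes, which mark blood, summed to 568 RPKM without and 44.7 RPKM with fasting (1 of 12 at 0), and keratin genes, which mark skin, to 1885 and 434 RPKM (6 of 23 at 0). Their part in the levels of the regions below was not tested. Each group is a single library without replicates, so differences describe these libraries alone and no p-value is given. In bulk muscle, fewer cells of a type and less RNA per cell cannot be told apart.

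A transcript assembler joins overlapping sequencing reads into exons and exons into transcripts, and it reports those that no annotated gene covers. Such regions can be exons of a gene that the annotation missed, the far 3′ part of an untranslated region of a known gene, or RNA that codes for no protein. A spliced transcript shows its strand at its introns, whereas a transcript of a single exon does not when the library carries no strand mark. The lists held 1 exon per line, each under an identifier of its own, so exons were not tied to transcripts. Positions are those of the deposited lists, on scaffolds as the lists name them.

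None of the 2199 members overlapped a gene of the annotated gene table (0 of 2199, which the label of an unannotated region requires). By strand the members formed 2 kinds. A strand was given for 1036 (47.1%), taken as exons of spliced transcripts, and not for the other 1163, taken as single-exon transcripts. In the regions of the control list only, 38.3% were spliced. The spliced members were short, with a median of 146.5 bases (quartiles 92 and 305, range 13 to 8515), close to the length of an ordinary coding exon. The single-exon members had a median of 765 bases (quartiles 487.5 and 1132.5, range 125 to 6009). Over both kinds the median was 460 bases, against 469 in the control-only regions, and 463 for the partners in the fasted library. By kind, the control-only medians were 151 bases for spliced and 611 bases for single-exon regions. Single-exon members were thus longer than single-exon regions of the control list only, which the pooled medians do not show.

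**Figure D1:**
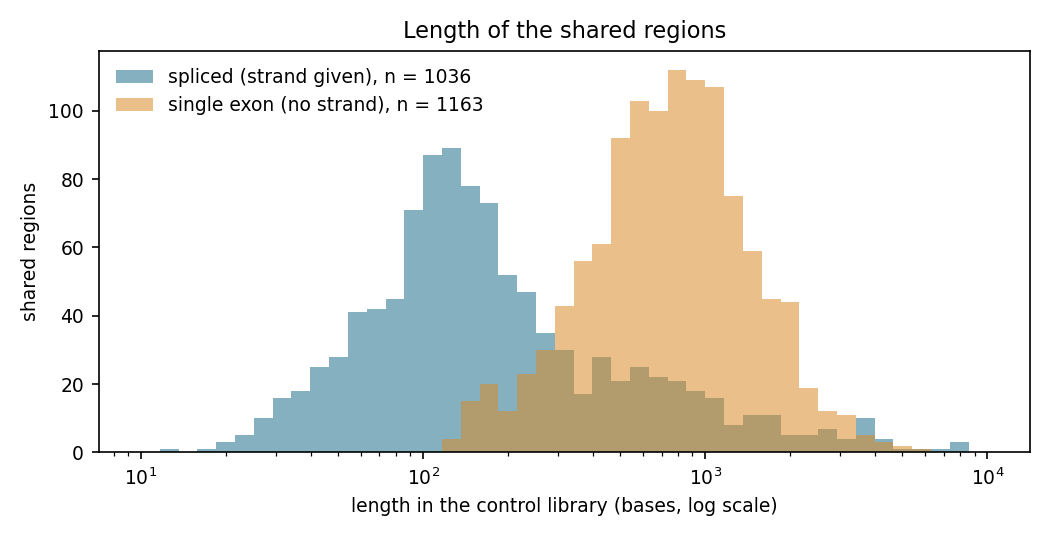
Length of the 2199 shared regions in the control library (horizontal axis, bases, log scale) against the number of regions (vertical axis), for the 1036 spliced and the 1163 single-exon members. The spliced members centre on a median of 146.5 bases and the single-exon members on 765, and the kinds overlap between about 125 bases and the longest regions.

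The kinds differed in how exactly the 2 libraries drew the same borders. Of 996 pairs spliced in both libraries, 439 had both ends at the same base (44.1%), 522 had 1 end at the same base and 35 had neither. Of 1134 pairs single-exon in both, 3 had both ends at the same base, 142 had 1 and 989 had neither (87.2%). The remaining 69 pairs had a strand in 1 library only. Partners of the single-exon members were longer in the fasted library in 624 pairs and longer in the control in 495, with a median difference of 8 bases. Overlap had a median of 98.9% in the spliced and 86.9% in the single-exon pairs, and the rule itself kept it at 50% or more.

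Neighbouring spliced members lay in runs, which may join several transcripts or split 1. A run was taken as spliced members of 1 strand with at most 5000 bases between neighbours and no annotated gene between them, a definition chosen after the data were seen. There were 364 runs, of which 113 held 1 member, 119 held 2, 80 held 3 or 4, 42 held 5 to 9 and 10 held 10 or more. In runs of at least 3, the borders that face into the run were the same in both libraries far more often than the borders that face out. Of 427 inner members 319 had both ends at the same base (74.7%). Of 258 members at either edge of a run, 238 shared the end facing inward (92.2%) and 53 the end facing outward (20.5%). A run is not the same as a transcript: first or last exons of assembled transcripts also lay inside the largest run, and the outermost member of a run could be an inner exon of its transcript.

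**Figure D2:**
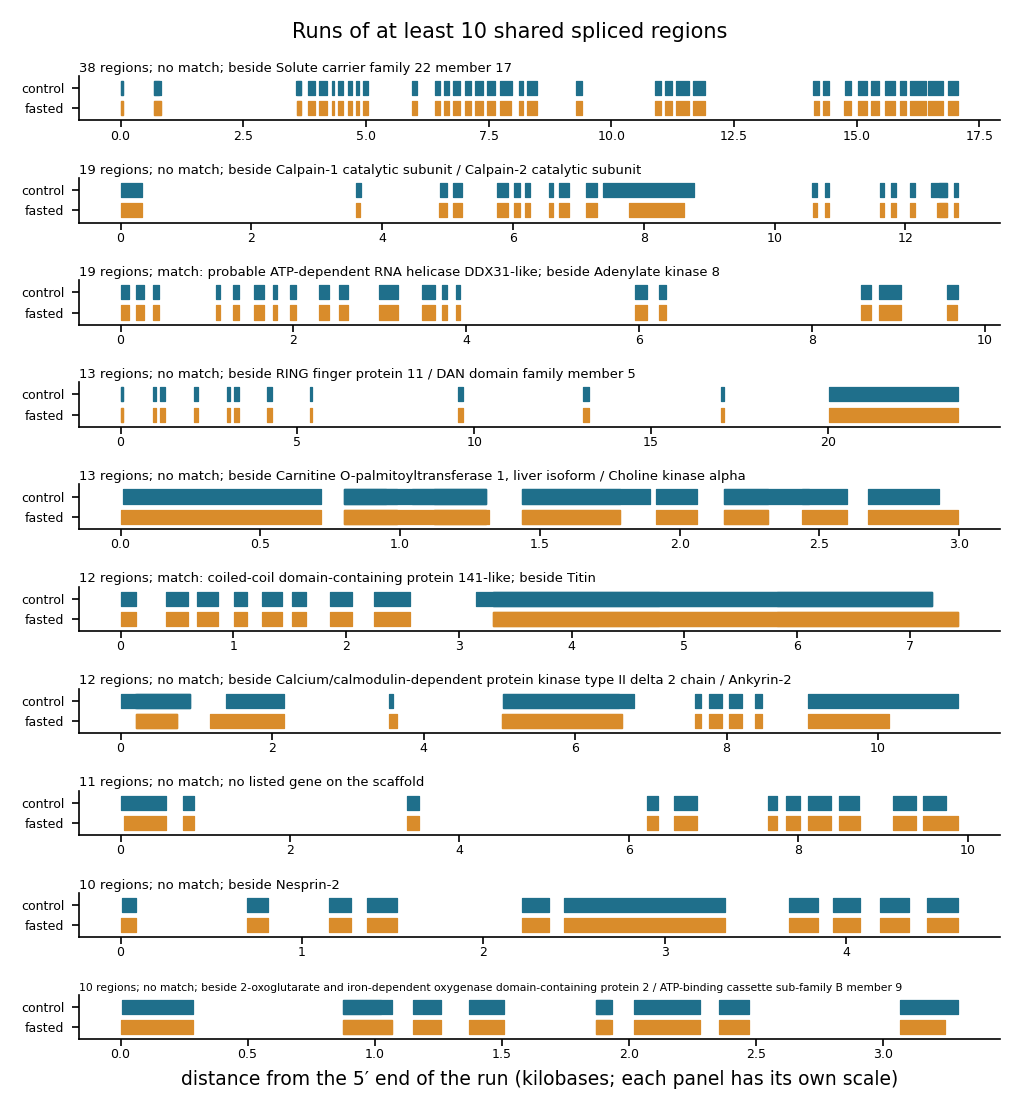
Exon maps of the 10 runs with at least 10 shared spliced regions, drawn as distance in kilobases from the 5′ end of the run, with control regions in the upper and fasted regions in the lower row of each panel. Blocks in the 2 rows line up at inner exons, for example in all but 1 of the 19 DDX31-like regions, while the outward borders of the first and last blocks differ more often (20.5% the same, against 92.2% facing inward).

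The largest run lay on scaffold NW_011322869.1, bases 2804 to 19868, minus strand, and held 38 members that summed to 5360 bases. Both ends were the same in the 2 libraries for 28 of them and 1 end for the other 10. None carried a protein match. The run held 6 first or last exons of several assembled genes, so it is more than 1 assembled transcript. The nearest annotated gene was Slc22a17 (gene11909, solute carrier family 22 member 17, a membrane protein of the organic ion transporter family), which lay 30858 bases from the member at the far end of the run and had 69 control and 9 fasted reads. Levels of this run are given further down, since they were among those that differed most between the libraries.

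The run of 19 members on scaffold NW_011323568.1 (bases 55215 to 68015, minus strand) lay between calpain-1 (gene18831) and calpain-2 (gene18833), catalytic subunits of calcium-activated proteases, and had no match. Another 19 members on scaffold NW_011324113.1 (bases 18884 to 28572, plus strand) all matched the RNA helicase DDX31, 18 of them with both ends the same in the 2 libraries. The neighbouring gene there was adenylate kinase 8 (gene21589). DDX31 is a DEAD-box helicase of the nucleolus known from ribosome assembly in human cells. A later annotation of this species (assembly L_crocea_2.0, used for names and gene order only) lists ddx31 next to ak8, the same neighbour.

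On scaffold NW_011323343.1, 2 runs of 9 and 12 members lay upstream of Titin (gene17154, the giant elastic protein of the sarcomere), at bases 30584 to 34822 and 42716 to 49911 on the plus strand. Of these, 20 members matched coiled-coil domain-containing protein 141 (CCDC141), a protein named for its coiled coils. No gene of the table used here carries that name, and the later annotation lists a gene ccdc141. Its neighbours there are listed as cxviiih2orf76 and LOC104936443. These symbols alone do not place it beside Titin. Further runs of 10 or more had no match. A run of 13 members lay between RING finger protein 11 (gene11147) and DAN domain family member 5 (gene11149). Another 13 members lay between carnitine O-palmitoyltransferase 1 (gene2550), the enzyme that admits fatty acids to mitochondria, and choline kinase alpha (gene2551). A member of that run had choline kinase alpha as its nearest gene, at 1373 bases. A run of 12 lay between calcium/calmodulin-dependent protein kinase type II delta 2 (gene8963) and ankyrin-2 (gene8964), a membrane anchor protein. A member of it had the kinase gene as its nearest gene, at 4899 bases. A run of 11 lay on scaffold NW_011325646.1, which has no gene in the table. A run of 10 lay beside nesprin-2 (gene10204), a protein of the nuclear envelope. Another run of 10 lay between 2-oxoglutarate and iron-dependent oxygenase domain-containing protein 2 (gene18740) and the lysosomal peptide transporter gene ABCB9 (gene18741). A member of it had the oxygenase gene as its nearest gene, at 425 bases.

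Few members carried a match to a known protein. A match was listed for 196 of 2199 members (8.91%, 95% Wilson interval 7.79% to 10.2%), 166 of them with a named protein, under 93 names in all. The authors' list gives no score for a match. In the control-only regions it was 102 of 1593 (6.40%, 5.30% to 7.71%). Exons of 1 transcript share their match, so these intervals are too narrow and the difference was not tested. Where both partners of a pair carried a match, the name was the same in all 166 pairs. A match stood in the control list only for 30 pairs and in the fasted list only for 45. Spliced members were matched in 130 of 1036 cases (12.5%) under 29 names, and single-exon members in 66 of 1163 cases (5.67%) under 65 names. In the control-only list a match stood for 76 of 610 spliced (12.5%) and 26 of 983 single-exon regions (2.64%). The spliced shares thus hardly differed between the lists. Names with 1 member numbered 67, and 11 names with 5 or more members took 87 of the 196. Runs carried a match in 34 of 364 cases, and in 9 of the 52 runs with at least 5 members.

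Sorted into protein groups by words in the name, the matches held little of the muscle machinery. A group misses proteins whose name lacks its words, so its count is not the number of such proteins. The zinc finger words miss Krueppel-like factor 13. Those of protein breakdown do not cover NEDD8-conjugating enzyme UBE2F or DDB1- and CUL4-associated factor 8. Of the contractile group only 2 regions of 1 name were members, both of actin filament-associated protein 1, an actin-bundling adaptor, against 20 regions of 1 name in the control-only list. Kinases and phosphatases of signalling, sorted by words in the name, were the largest named group. They held 16 regions of 11 names among the 196 matched members, against 6 regions of 5 names among the 102 matched control-only regions. Of the 16, 2 matched an ankyrin repeat regulatory subunit of protein phosphatase 6. The group included the serine/threonine kinase Sgk1, the cytokine-receptor kinase JAK1 with 2 exons, mitogen-activated protein kinase 8B (a JNK), and homeodomain-interacting protein kinase 3 with 3 overlapping exons of up to 3665 bases. Protein breakdown had 2 (F-box/LRR-repeat protein 19 and ubiquitin domain-containing protein 1), and zinc fingers, immune proteins (a lysosomal thiol reductase), protein synthesis (initiation factor 3 subunit B) and matrix (fibronectin type III domain-containing protein 3B) had 1 each. In the control-only list protein breakdown had 2 regions, zinc fingers 4, protein synthesis 1, and immune proteins and matrix 0. Mobile elements and mitochondrial fuel use had 0 in both. Proteins known only as uncharacterized took 30 regions under 8 names, against 13 under 8 names in the control-only list.

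Where a single-exon member had a named match, it was mostly to the very gene that the member lay behind. Of 64 single-exon members with a named match, 41 had an annotated gene of the same name as their nearest gene and 11 had it on the same scaffold but not nearest. Another 4 had it on other scaffolds and 8 had none. Names were compared whole, after the endings -like and homolog and the word fragment were removed. A gene listed under another wording of its name therefore counts as none. Of the 52 on the same scaffold as their namesake, 47 lay downstream of it, at a median distance of 2908 bases (2061 to 7446), and 5 upstream. Distance here is the difference between the nearest positions of region and gene. No single-exon member lay closer than 2000 bases downstream of its nearest gene, an edge of the list described below.

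Examples follow by role, chosen after their values were seen. Among DNA and RNA regulators, a member of 3247 bases (NW_011322781.1, 319537 to 322783) lay 3909 bases downstream of DNA methyltransferase 3A (gene10645), which sets new methylation marks on DNA. That gene stood at 8.78 RPKM without and 3.23 RPKM with fasting. A member of 2327 bases lay 3238 bases downstream of the RNA-binding protein quaking-A (gene2490, 23.0 and 27.2 RPKM), a splicing regulator of muscle and glia. Behind Krueppel-like factor 13 (gene2980, 18.3 and 8.29 RPKM), a zinc finger transcription factor, a member of 1172 bases lay at 2662 bases. Musashi 1, an RNA-binding repressor of translation (gene21716, 18.96 and 36.8 RPKM), had one at 2772 bases, and muscleblind-like 1, a splicing factor that matures with muscle (gene4220, 75.9 and 54.8 RPKM), had one at 2247 bases.

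Ligands, receptors and kinases were also among the matches. Semaphorin-4B, a guidance ligand of the cell surface, had a member 2877 bases downstream (gene25), and ephrin-B1 (gene9722) and ephrin-B2a (gene2453), ligands of Eph receptors, had members at 2783 and 2536 bases. The vitamin D3 receptor A, a nuclear hormone receptor, had one of 1744 bases at 2872 bases (gene14148), and Sgk1 had one of 767 bases at 2061 bases (gene21166), the shortest downstream distance of the 47. The 3 farthest included argonaute-3, a small-RNA effector, at 6331 bases (gene17445) and nucleus accumbens-associated protein 1 at 6838 bases (gene910). The 5 members upstream of their namesake included one 17857 bases before MAP kinase-activated protein kinase 2 (gene9799), a stress-signalling kinase, one 127 bases before the transcription factor ETV6 (gene9110, 5.67 and 9.79 RPKM), and one 400 bases before the repressor capicua (gene7023).

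Spliced members with a match behaved otherwise. Of 102 with a named protein, 71 (11 names) had no gene of that name in the table, 17 had it on other scaffolds, and 14 had it on the same scaffold. The 71 included the DDX31 and CCDC141 exons, 5 exons matching nuclear factor 1 C-type, a transcription factor, on scaffold NW_011324364.1, and 5 matching cat eye syndrome candidate region 5 on scaffold NW_011322464.1. They also included 5 exons matching bromo and FHA domain-containing protein DDB_G0267958, 4 matching cell wall protein DAN4 and 3 matching uro-adherence factor A. The absence of a name from the table does not show that the gene itself is absent from it. On the same scaffold as their namesake were 5 exons from 2004 to 15354 bases upstream of AHNAK (gene12186, 10.2 and 39.7 RPKM), a giant scaffold protein of the membrane. There were also 4 exons within 1578 bases downstream of nesprin-2, and 2 exons 9 and 164 bases downstream of actin filament-associated protein 1 (gene15295), at the very end of scaffold NW_011323147.1. JAK1-like exons lay 11784 and 13319 bases upstream of JAK1 (gene13753).

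Most members lay near an annotated gene. Of the 2199, 173 were on scaffolds with no gene in the table, and the other 2026 had a median distance of 3444 bases to the nearest gene (quartiles 2318.5 and 6894.75, range 9 to 249070). Of these, 131 lay closer than 1000 bases, 1197 at 1000 to 5000, 517 beyond 5000 and up to 20000, and 181 farther. The control-only regions had a median distance of 2976 bases. By kind, the medians were 5117 bases for spliced members against 3513 in the control-only list. For single-exon regions they hardly differed, at 2908 and 2838 bases. The farthest members formed a cluster on scaffold NW_011322694.1, about 239022 to 249070 bases from glycine transporter 2 (gene9078), a gene at 0 in both libraries.

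The side of the gene differed between the kinds. Of the single-exon members with a gene, 799 lay downstream of it and 286 upstream (73.6% downstream), as judged from the strand of the gene. The spliced members lay evenly, 469 downstream and 472 upstream. Their strand was that of the nearest gene for 292 of the 469 downstream (62.3%) and for 275 of the 472 upstream (58.3%).

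The distances of single-exon members downstream of a gene started abruptly. None of the 799 was closer than 2000 bases, and 238 lay at least 2000 and less than 2500 bases away. Upstream, 111 of 286 were closer than 2000 bases. Spliced members showed no such gap, with 82 of 469 downstream and 98 of 472 upstream closer than 2000 bases. The regions of the control list only had the same edge, with 0 of 658 downstream single-exon regions closer than 2000 bases and 198 between 2000 and 2500. No source used here states a filter of this kind, and its part in the lists was not tested, so a count of single-exon regions close behind genes says nothing about RNA there.

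**Figure D3:**
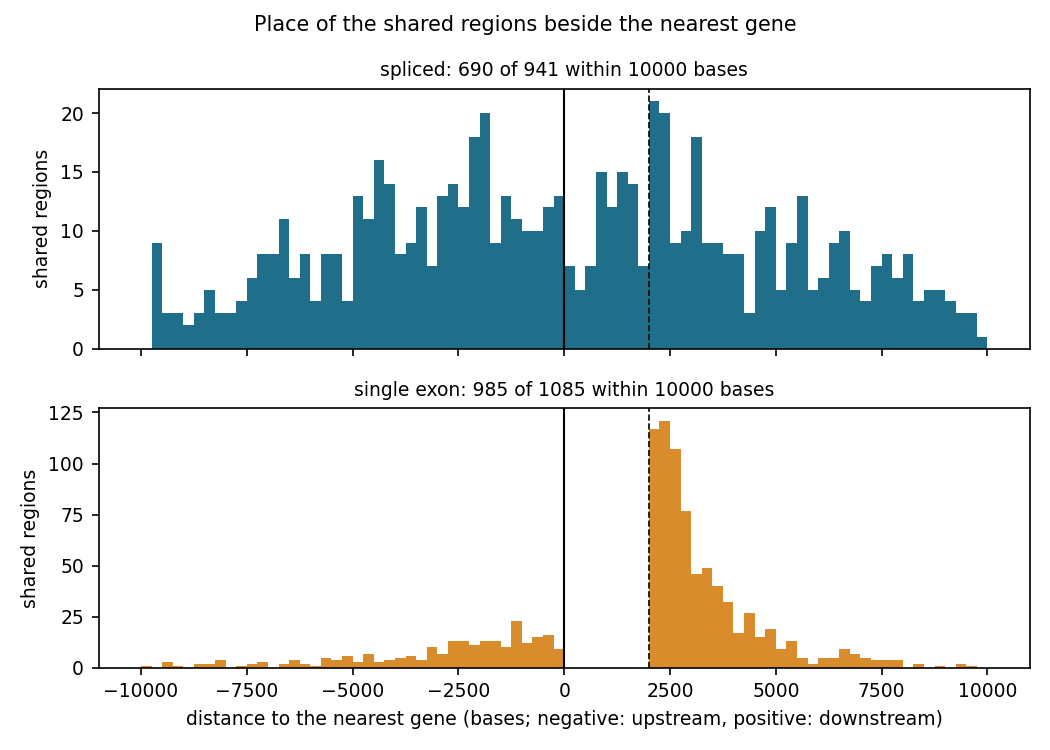
Number of shared regions (vertical axis) by distance to the nearest annotated gene in bases (horizontal axis, negative for upstream and positive for downstream, in steps of 250), for spliced members (top) and single-exon members (bottom) within 10000 bases. The dashed line marks 2000 bases downstream, where the single-exon members begin, with 0 of 799 closer to the gene.

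The longest members were of both kinds. The longest, 8515 bases on scaffold NW_011322683.1 (37186 to 45700, minus strand), had no match and lay 9525 bases from a gene without a protein name. It was listed at 0 FPKM in the control, and its fasted partner had no listed level. A member of 7463 bases on NW_011322935.1 (85738 to 93200, minus strand) lay on the opposite strand, 1795 bases downstream of bone morphogenetic protein 2 (gene12917), a growth factor. It matched a protein named uro-adherence factor A-like. The member was listed at 23.0 FPKM without and 3.005 FPKM with fasting. A pair of overlapping members of 7405 and 7195 bases on NW_011322694.1 lay opposite to lymphocyte-specific protein 1 (gene9075), an actin-binding protein, at 2175 and 2557 bases downstream. The first of them stood at 43.6 and 22.3 FPKM, and the gene at 12.1 and 3.98 RPKM.

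A level could be set only for members that were the first or last exon of an assembled transcript, because the authors' event lists give an FPKM (fragments per length and depth) for these ends. The comparison was added after the data were seen. The exact position was found for 560 control and 547 fasted members. Of these, 156 and 159 were listed at 0, and the rest had medians of 6.50 and 8.09 FPKM. In the regions of 1 list only, the medians above 0 were 3.74 FPKM (control list) and 3.36 FPKM (fasted list). A level of at least 10 FPKM was reached by 36.6% and 45.6% of the members above 0, against 21.0% and 21.9%. A member had to be assembled in both libraries, so a higher level than in regions of 1 list is partly set by the rule.

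Levels ran over several orders of magnitude. At least 1000 FPKM in either library was listed for 22 members of 12 assembled genes, with a median length of 72.5 bases (16 to 657). Whether a listed FPKM belongs to the exon or to its transcript is not stated, and exons of 1 assembled gene could carry the same value. In 1 run a last exon of 239 bases and a first exon of 531 bases both stood at 2.27 and 1.34 FPKM. A level given below for a member can thus be that of its whole transcript. The highest member (NW_011323255.1, 4006 to 4109, plus strand) stood at 44459 FPKM without and 49944 FPKM with fasting, 22650 bases upstream of the transcription factor jun-B (gene16314). The next, 12772 bases upstream of the tumour suppressor menin (gene15602), stood at 26988 and 31320 FPKM. Both had no match, and relative to all exon ends neither was past 2-fold (log2 ratios -0.39 and -0.34).

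The question of fasting was asked of 345 members of 210 assembled genes, those with an FPKM above 0 in both libraries and a mean of at least 1 FPKM. A ratio is log2 of fasted over control with a pseudocount of 0.5 FPKM, so that changes of low values come out too small. It is given relative to the median of all 14999 first and last exons compared, whose ratio was 0.56 as deposited. On this scale the members had a median of -0.27 (quartiles -0.86 and 0.51). The sign turned with FPKM as deposited, to 0.29, and with no filter on low values, to 0.030. At least 2-fold higher in the fasted library were 49 members (14.2%, against 17.9% of all exon ends) and at least 2-fold lower 76 (22.0%, against 17.1%). The split turned as well, to 98 higher and 43 lower without centring and to 72 higher and 52 lower of 349 with no filter. Shares of all exon ends at these settings are not given, so the turned counts show no trait of the members. The 49 came from 30 assembled genes and the 76 from 49. Of 145 further members listed at 0 in either library, 135 were at 0 in both.

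**Figure D4:**
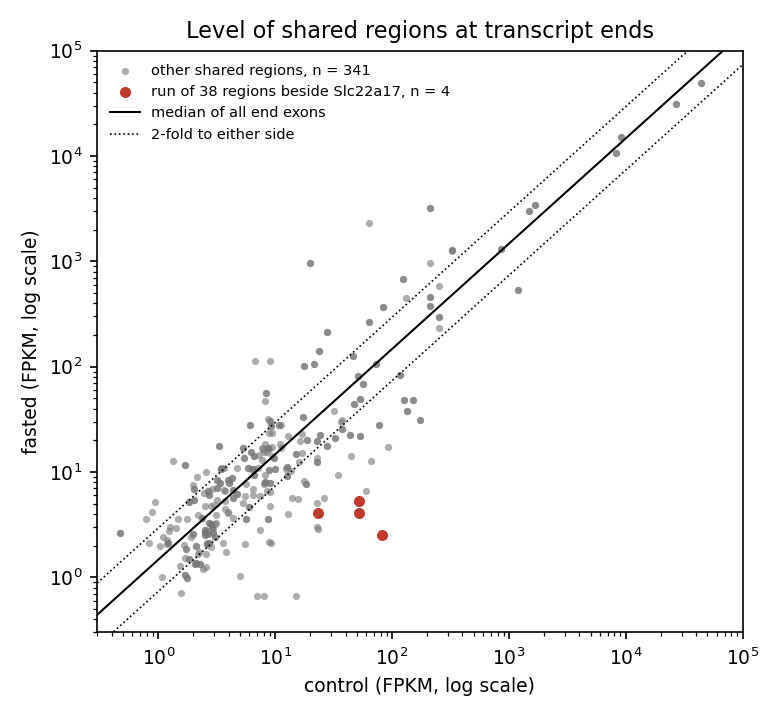
Level of 345 shared regions at transcript ends in the control (horizontal axis) and fasted library (vertical axis), both in FPKM on log scales. The solid line is the median ratio of all 14999 exon ends (0.56 on the log2 scale), the dotted lines are 2-fold to either side, and the 4 red points of the 38-region run lie below them.

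The run of 38 regions near Slc22a17 had the lowest ratio of all. One first exon (11672 to 11748) stood at 81.6 FPKM without and 2.51 FPKM with fasting, a log2 ratio of -5.33. The other ends of the run stood at 52.2 and 4.04 FPKM (11899 to 12137, -4.09), 52.0 and 5.36 FPKM (2804 to 3009, -3.72) and 23.1 and 4.04 FPKM (19817 to 19852, -2.94). A further pair of first exons stood at 52.0 and 29.1 FPKM in the control and were listed at 0 in the fasted library. All 6 ends were thus lower in the fasted library, also with FPKM as deposited. They are not 6 separate measurements. The ends at 2804 to 3009 and 5636 to 5747 carried the same control value. Those at 11899 to 12137 and 19817 to 19852 carried the same fasted value. Slc22a17 itself stood at 1.35 and 0.182 RPKM.

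Other runs differed less or in the opposite direction. The run between the calpain genes stood at 15.6 and 5.56 FPKM at its measured end (log2 ratio -1.97), and another end stood at 5.28 FPKM and at 0. In the run beside RING finger protein 11 (gene11147) the last exon, of 3654 bases, stood at 27.7 and 17.8 FPKM (-1.18). The last DDX31-like exon stood at 1.96 and 7.59 FPKM (1.16). The last CCDC141-like exon stood at 0.837 and 2.14 FPKM (0.42), within 2-fold. In the run without a gene on its scaffold, a first and a last exon stood at 2.27 and 1.34 FPKM (-1.15), and another last exon was listed at 0 in both libraries.

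Among the members with the lowest ratios outside these runs were a region on NW_011322803.1 (312538 to 312972), at 15.1 and 0.669 FPKM (-4.29), and a short exon 2321 bases downstream of tubulin alpha-1D (gene18563), a microtubule subunit, at 60.2 and 6.63 FPKM (-3.65). The tubulin gene itself stood at 10.5 and 9.45 RPKM (-0.62). A member 1760 bases downstream of tropomyosin alpha-3, a thin-filament protein of slow fibres, stood at 91.8 and 17.5 FPKM (-2.92). That gene (gene17130) went the same way, at 169 and 30.5 RPKM (-2.93). Both lay on the plus strand.

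The member with the highest ratio lay on NW_011322646.1 (183317 to 183765, minus strand), behind cytoskeleton-associated protein 2-like (CKAP2L, gene8146), a spindle protein of dividing cells, on the same strand. It stood at 19.8 FPKM without and 961 FPKM with fasting (5.01), and the CKAP2L gene at 0.631 and 24.9 RPKM (39 and 1486 reads, 4.01). Another exon of this assembled gene, at 187490 to 187696, carried the same values. A member of 42 bases on NW_011323122.1 stood at 63.2 and 2298 FPKM (4.62), 41525 bases from a gene at 0 in both libraries. Upstream of initiation factor 5B (gene19516), which joins the ribosomal subunits at the start of translation, members 245 and 498 bases away stood at 211 and 3237 FPKM (3.38). That gene stood at 13.3 and 94.2 RPKM (2.29). The exon matching initiation factor 3 subunit B (NW_011323706.1, 89425 to 89898) stood at 2.58 and 9.998 FPKM (1.21). Against these, a pair of 55-base members upstream of proteasome subunit alpha type-5 (gene23482) stood at 8279 and 10600 FPKM (-0.20) while that gene stood at 44.4 and 533 RPKM (3.09).

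Region and gene ratios were set side by side for assembled genes with a member within 5000 bases of an annotated gene that also had a mean of at least 1 RPKM. On the strand of the gene there were 51, with Pearson r = 0.51 and Spearman rho = 0.31 between the centred ratios. On the opposite strand there were 38, with r = 0.33 and rho = 0.37. These describe loci of the same library pair, which share depth and scaling and are not independent replicates. Of 19 past 2-fold on the same strand, the gene was past 2-fold the same way for 7, and of 14 on the opposite strand for 4. For comparison, 16.1% of all 11417 genes compared passed this limit upward and 16.6% downward. Some same-strand genes passed it against their region. The region beside gene9613 stood at -2.45 and the gene at 1.41. Beside gene12830 the region stood at -1.04 and the gene at 1.03. Whether region and gene moved together more often than these shares give was not tested.

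**Figure D5:**
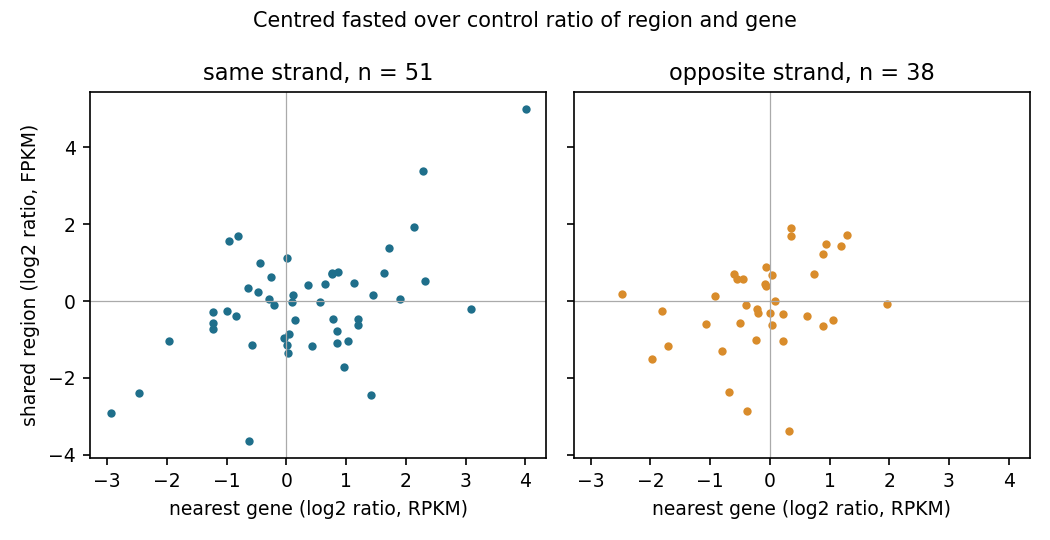
Centred log2 ratio of fasted over control of the annotated gene (horizontal axis, from RPKM) against that of the shared region within 5000 bases (vertical axis, from FPKM), 1 point per assembled gene, for the same strand (left, n = 51) and the opposite strand (right, n = 38). The point at the upper right of the left panel is CKAP2L, at 4.01 and 5.01.

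The annotated genes nearest to the members numbered 1185, of which 854 had a mean of at least 1 RPKM (72.1%, against 51.1% of all genes). Their ratios, relative to the median gene (0.48 as deposited), had a median of -0.20 (quartiles -0.74 and 0.35), and the sign turned with RPKM as deposited, to 0.29, and with no filter on low values, to 0.12. Of the 854, 81 were at least 2-fold higher (9.48%, against 16.1% of all 11417 genes compared) and 151 at least 2-fold lower (17.7%, against 16.6%). The split turned as well, to 165 higher and 71 lower with RPKM as deposited and to 176 higher and 84 lower of 1185 with no filter. Shares of all genes at these settings are not given, so the turned counts show no trait of the nearest genes. The nearest genes of the control-only regions had a median of -0.24, with 9.90% higher and 24.2% lower, and those of the fasted-only regions a median of -0.01, with 14.5% and 14.4%. The lists were drawn from what each library expressed, so these medians are a description and were not tested.

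By side, the 540 genes with a member downstream within 5000 bases had a median of -0.29, with 39 higher and 105 lower (7.22% and 19.4%). The 201 genes with a member upstream had a median of 0.12, with 26 higher and 22 lower (12.9% and 10.9%). On the scale as deposited both sides move up by the same 0.48, which leaves the difference between them as it is. The difference was not tested.

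The nearest genes at the ends of the scale included muscle proteins. Fast skeletal troponin I (gene14839), the inhibitory subunit of the fast thin filament, stood at 145 and 2167 RPKM (log2 ratio 3.42), with a single-exon member of 607 bases 2377 bases downstream. Centrosomal protein cep57l1 (gene7307) stood at 1.01 and 20.6 RPKM (3.32), and the DNA repair protein XRCC2 (gene21863) at 1.70 and 20.8 RPKM (2.79). At the other end, a cardiac-type troponin T (gene2746), the tropomyosin-binding subunit, stood at 335 and 25.6 RPKM (-4.17), with a member of 1907 bases 1922 bases upstream. Band 4.1-like protein 2 (gene11792), a membrane skeleton protein, stood at 17.8 and 2.45 RPKM (-3.11), PQ-loop repeat-containing protein 1 (gene5569) at 28.3 and 4.55 RPKM (-2.99) and the potassium channel KCNA3 (gene15451) at 19.7 and 3.79 RPKM (-2.72). These members were single-exon and had no level of their own.

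The most abundant nearest gene was nucleoside diphosphate kinase B (gene21545), which passes phosphate between nucleotides, at 78360 and 37021 RPKM (-1.56), with a member of 491 bases 2873 bases downstream. Ribosomal proteins S8 (gene16923, 1146 and 3624 RPKM, 1.18) and L14 (gene15924, 764 and 2601 RPKM, 1.28) followed, each with a member upstream. Tropomodulin-4 (gene8576), which caps thin filaments, stood at 1313 and 990 RPKM (-0.89). Where several genes carry one name or a region lies opposite to a gene, reads could have been split between copies or strands. The use of strand in counting is not known here.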

How the data were processed

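Libraries were grouped by the treatment label, 1 per group. Genome build and use of strand were not given in the sources used here. HTSeq, SAMtools 0.1.19, TopHat and TopHat2 2.0.12 are named, without roles, in the submitters' processing notes. The authors deposited lists of regions outside the annotation with exon start and end positions, whose source column reads Cufflinks per the file headers, and with a protein description for some lines. Of 4048 control and 4498 fasted lines, 3792 and 4202 were distinct exons, and each was counted once. The authors also deposited RPKM per gene with a position, RPM per gene, and FPKM for each first- or last-exon event.

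Members were found by position, each paired with the partner of the largest overlap. Distances run to the nearest gene of the RPKM table on the same scaffold. The deposited RPM were turned back into reads, with 100% of nonzero values whole within 0.1 read. Ratios are log2 of fasted over control with a pseudocount of 0.5 RPKM or FPKM, for means of at least 1, centred on the median. Called means at least 2-fold. No test was run, as single libraries give no estimate of dispersion. The depth behind a region is unknown, since no reads per region are given. Intervals printed are 95% Wilson intervals for counting error only. The 95% intervals of medians, used only to judge recomputed values, were taken from ranked values. They treat members or genes as independent, which those of 1 library pair are not. The overlap and strand rules, the distance to the nearest gene and the gene ratios were tested on simulated data. Runs, sides, namesakes and levels of regions were not.

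Named regions were chosen by a fixed rule: the 10 longest, the 10 longest with a named match, the 2 longest of each protein group, the 5 nearest to and farthest from a gene, and those of the 5 most abundant, highest and lowest nearest genes. Runs, levels and namesakes, and the regions and genes named for them, were added after the data were seen. The members and lists were chosen with earlier results of these data known. Python 3.11.15, pandas 2.3.3, NumPy 2.4.6 and SciPy 1.17.1 were used. No sequence is shown, as no genome was used here.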

Additional observations from a re-analysis of the deposited data

How the results depend on the processing

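Of 54 recomputed values, 34 stayed within the range set for the reported value (1.5 times for a count, the 95% interval for a median or share) and 20 moved. Members numbered 1560 at an overlap of 80% and 2648 at any overlap, but 442 with identical ends. The median length was 339 bases at an overlap of 80%. The share with a match was 7.55% for named proteins only. The median distance was 3886 bases to a gene of the same strand, 4174 to genes of at least 1 RPKM and 3618 at an overlap of 80%.

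The nearest genes' median ratio was 0.29 not centred (165 higher, 71 lower), 0.12 with no filter on low values (176 higher, 84 lower, of 1185 genes) and -0.29 for downstream regions alone, where 39 were higher. The members' own median ratio was 0.29 not centred (98 higher, 43 lower) and 0.030 with no filter (72 higher, 52 lower), and 29 were higher and 48 lower when each of 210 assembled genes was counted once, because fewer units enter. Shares of all genes or exon ends at these settings are not given beside the counts. For the turns of sign, the first follows from the centring itself. With no filter, the median used for centring was taken anew over all genes, or over all exon ends above 0. The members entering rose only from 345 to 349, and the nearest genes from 854 to 1185. How far the new median or the added entries made the second turn was not tested. Counting lines in place of exons, the downstream subset and all alternatives for the members' own levels were chosen after seeing the data. No paired analysis was possible because each group has 1 library and the labels give no replicate numbers, and for the same reason no library could be left out.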
